A study of Mus musculus with 16 samples.

Results

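Trp53, the gene of the tumour suppressor p53, and 9 of its target genes were examined in 8 RNA-seq libraries of mouse embryonic stem (ES) cells. The 10 genes (Trp53, Mdm2, Cdkn1a, Ccng1, Bbc3, Bax, Eda2r, Trp53inp1, Ddit4l and Sesn1) were taken by name, as p53 and known p53 targets, from the 23420 genes of the count files. They and the gene lists below were chosen with earlier results of these data known. Their counts beside the shares of all genes are therefore descriptions only. All 10 were in the files, and all 10 were among the 14664 genes tested. The cells were J1 ES cells of the 129S4/SvJae background at passage 36, of genotype Tn(dCas9-VPR/RLTR10B2-gRNA-DsRed). They therefore carried dCas9-VPR, a Cas9 without cutting activity joined to activation domains, and a guide RNA named for RLTR10B2, a family of endogenous retroviral long terminal repeats. The 4 groups, sampled on day 3 with 2 libraries each, were cells without doxycycline (control), cells with doxycycline at 1 µg/ml (Dox), cells with A-MYB and no doxycycline (A-MYB), and cells with both (Dox + A-MYB). A-MYB is a transcription factor of male meiosis, encoded by Mybl1. All groups grew without feeder cells in medium with 15% serum, the 2i inhibitors PD0325901 (1 µM) and CHIR99021 (3 µM), and LIF. Every group carried the activator construct and the RLTR10B2 guide, so an effect of doxycycline itself cannot be told apart from one of the construct. RNA came from wells of a 24-well plate, and nothing says that the wells were separate cultures, so the p-values measure only the spread between these libraries, which may be technical.

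p53 is a transcription factor that is kept low by the ubiquitin ligase Mdm2 and accumulates after DNA damage and other stress. Mdm2 is itself a p53 target, which makes a negative feedback loop, and other targets slow the cell cycle (Cdkn1a, Ccng1), permeabilise mitochondria (Bbc3, Bax) or act in stress and growth signalling (Sesn1, Ddit4l, Trp53inp1). p53 activity is set largely at the protein level, so the Trp53 mRNA and the mRNAs of its targets are separate readouts. Mouse ES cells express p53 and many of its targets in normal culture.

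The p53 response element is made of a pair of copies of a decamer, the p53 half-site. The 250 bases before an annotated start held a half-site, searched on both strands, in 7 of the 9 member genes with a RefSeq promoter entry (GRCm38.p6, the patch release of mm10), against 7.1% of all 32851 promoter windows of this length. The 9 genes had 13 starts, of which 7 windows held a match, and Trp53inp1 is named only. The 4 target genes with the largest rises in Dox + A-MYB cells that have an entry, and Cdkn1a, which fell, are shown 5′ to 3′ on the strand of the gene, with half-sites in capitals. Their positions are chr10:117710759-117711008 (minus strand) for Mdm2, chr17:29090729-29090978 (plus strand) for the upstream start of Cdkn1a, chr11:40755287-40755536 (minus strand) for Ccng1, chrX:97377210-97377459 (minus strand) for Eda2r and chr3:137623422-137623671 (plus strand) for Ddit4l.
Mdm2: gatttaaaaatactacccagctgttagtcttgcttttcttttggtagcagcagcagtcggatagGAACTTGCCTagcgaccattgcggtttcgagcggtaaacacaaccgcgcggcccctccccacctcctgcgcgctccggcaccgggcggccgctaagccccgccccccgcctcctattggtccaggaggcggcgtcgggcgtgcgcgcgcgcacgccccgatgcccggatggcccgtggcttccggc
Cdkn1a: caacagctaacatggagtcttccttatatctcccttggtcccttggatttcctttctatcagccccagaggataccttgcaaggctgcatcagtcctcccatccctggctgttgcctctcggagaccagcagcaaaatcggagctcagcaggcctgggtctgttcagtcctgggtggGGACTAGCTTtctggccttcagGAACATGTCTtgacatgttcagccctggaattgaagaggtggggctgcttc
Ccng1: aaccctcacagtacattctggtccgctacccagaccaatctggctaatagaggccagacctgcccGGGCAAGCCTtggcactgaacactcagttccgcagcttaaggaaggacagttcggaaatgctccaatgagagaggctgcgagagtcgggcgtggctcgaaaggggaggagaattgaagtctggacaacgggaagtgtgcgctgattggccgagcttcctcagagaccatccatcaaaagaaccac
Eda2r: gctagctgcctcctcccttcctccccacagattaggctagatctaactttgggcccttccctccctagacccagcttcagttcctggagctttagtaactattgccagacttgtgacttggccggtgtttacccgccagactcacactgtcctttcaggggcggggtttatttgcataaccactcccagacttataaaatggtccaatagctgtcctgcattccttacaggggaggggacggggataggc
Ddit4l: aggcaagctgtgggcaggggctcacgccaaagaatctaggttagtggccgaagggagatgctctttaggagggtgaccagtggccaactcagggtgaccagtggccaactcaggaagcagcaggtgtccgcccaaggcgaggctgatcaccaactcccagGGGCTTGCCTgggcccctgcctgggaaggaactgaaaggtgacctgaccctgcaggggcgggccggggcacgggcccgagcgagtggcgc
Cdkn1a was the member window with more than 1 match, GGACTAGCTT at 73 bases before the start and GAACATGTCT at 51 bases before it. GAACATGTCT is directly followed by tgacatgttc, which departs from the searched decamer only at its first base. The search took exact matches only and did not mark it, so the marked matches need not be the pair of an element. The single matches were GAACTTGCCT in Mdm2, GGGCAAGCCT in Ccng1, GGGCTTGCCT in Ddit4l, AGGCAAGCTT in Bax, AAGCTTGTTT before the downstream start of Sesn1 and GGACTTGCCC in Trp53 itself. Eda2r and Bbc3 had none in these windows. A MYB core, AACNG on both strands, was found in all 9 genes and in 74.2% of all promoter windows. A gene counts here if any of its windows holds a match, and for Bbc3 only the window before chr7:16310431 did. The extended form CAACTG, which contains the core, was found in 0 of 9 genes against 11.1% of windows, so a count of 0 does not set these genes apart. A match describes these letters only and is not evidence of binding.

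The libraries held 26995317 to 33771487 counts on genes. Mybl1, which checks the A-MYB labels, was at 8.38 and 6.92 CPM (counts relative to a TMM-scaled library size) in control, 10.99 and 10.2 in Dox, 22.0 and 17.8 in A-MYB and 19.9 and 16.6 in Dox + A-MYB libraries. All 8 ES cell markers were above 1 CPM in every group. Their summed level was 6012 to 6140 CPM in control, 6409 to 6455 in Dox, 5797 to 6015 in A-MYB and 4112 to 4369 in Dox + A-MYB libraries. Of the 8 fibroblast markers, Postn, Lum and Dcn were at 0 in control. The summed level was 20.9 to 22.6 CPM in control and 8.996 to 9.018 CPM in Dox + A-MYB libraries, most of it Pdgfrb (16.8 and 16.7 against 5.23 and 6.23 CPM). Col3a1 went the other way, from 0 and 1 counts in control to 36 and 10 in Dox + A-MYB libraries, as did Lum (0 and 0 to 7 and 12 counts) and Dcn (0 and 0 to 10 and 6 counts). The summed levels in control and in Dox + A-MYB libraries were 99.6 to 103.0 and 73.0 to 77.8 CPM for 8 endoderm markers, 27.9 to 29.0 and 12.8 to 13.5 CPM for 6 mesoderm markers, and 358 to 361 and 183 to 185 CPM for 5 neuroectoderm markers. These sums were carried by Lama1, Eomes and Tubb3, which fell, while Dab2 (1.18 and 1.20 to 9.17 and 7.33 CPM), Hand1 (0.208 and 0.427 to 1.23 and 1.36 CPM) and Pax6 (0.554 and 0.272 to 3.88 and 4.09 CPM) rose. With both treatments against control, 33.5% of all genes tested were called higher and 30.4% lower. The called markers were 2 higher and 1 lower of 5 tested for endoderm, 1 and 2 of 6 for mesoderm, 2 and 2 of 4 for neuroectoderm, and 1 and 3 of 4 for fibroblasts. Counts this small do not set the endoderm, mesoderm and neuroectoderm lists apart from all genes. Col3a1, Hand1 and Mesp1 had enough counts to be tested only through the Dox + A-MYB libraries. Of the 8 ES cell markers, 7 were lower in the same comparison (87.5%, against 30.4% of all genes), among them Nanog (1014 and 951 to 459 and 499 CPM). Utf1 was the 1 called higher (76.1 and 80.2 to 97.7 and 88.6 CPM). Afp, of the endoderm list, and Neurog2, of the neuroectoderm list, were at 0 in control. On the first principal component the pair of libraries with both treatments lay far from the remaining 6 (64.1% of the variance; 80.7 and 80.9 against -48.4 to -9.73), and they had counts on more genes (17554 and 17602 against 16027 to 16512). The part of these differences in the results below was not tested, and in bulk RNA fewer cells of a type and less RNA per cell cannot be told apart.

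Trp53 mRNA changed little across the 4 groups, whereas Mdm2, its main negative regulator and target, rose stepwise. Trp53 was at 460 and 477 CPM in control, 521 and 520 in Dox, 438 and 479 in A-MYB and 454 and 463 in Dox + A-MYB libraries. The Dox libraries were the highest, and the other 3 groups overlapped. In the absence of A-MYB, Dox raised Trp53 by 0.15 on the log2 scale (SE 0.06, edgeR adjusted p = 0.0420). That call was lost when any 1 of the 4 libraries compared was left out (adjusted p 0.130 to 0.348) and with DESeq2 (0.0968). In the presence of Dox, A-MYB was associated with lower Trp53 (log2 fold change -0.18, SE 0.06, adjusted p = 0.00820). That call was lost with total-count scaling (a difference of 0.0082, adjusted p = 0.910), with upper-quartile scaling (0.154), with at least 10 counts required in each library (0.0631) and without Dox replicate 1 (0.0501). In the other 2 comparisons of 1 treatment at a time, Trp53 did not pass the test (Dox with A-MYB 0.00, 95% interval -0.12 to 0.12; A-MYB without Dox -0.03, -0.15 to 0.09). With total-count scaling Trp53 passed for Dox with A-MYB, at 0.21 (adjusted p = 0.00217).

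Mdm2 encodes the ubiquitin ligase that targets p53 for degradation. Its level was 112 and 117 CPM in control, 164 and 166 in Dox, 184 and 185 in A-MYB and 309 and 301 in Dox + A-MYB libraries. The 4 groups did not overlap, and their order was control, Dox, A-MYB, Dox + A-MYB. Dox raised Mdm2 by 0.52 on the log2 scale without A-MYB (SE 0.06, edgeR adjusted p = 2.21e-07) and by 0.72 with it (SE 0.06, adjusted p = 7.85e-11). A-MYB raised it by 0.69 without Dox (SE 0.06, adjusted p = 9.02e-09) and by 0.89 with Dox (SE 0.06, adjusted p = 2.13e-12). Both treatments together gave 2.66 times the control level (log2 fold change 1.41, SE 0.06, adjusted p = 9.35e-17). These 5 calls held in every alternative analysis run.

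**Figure D1:**
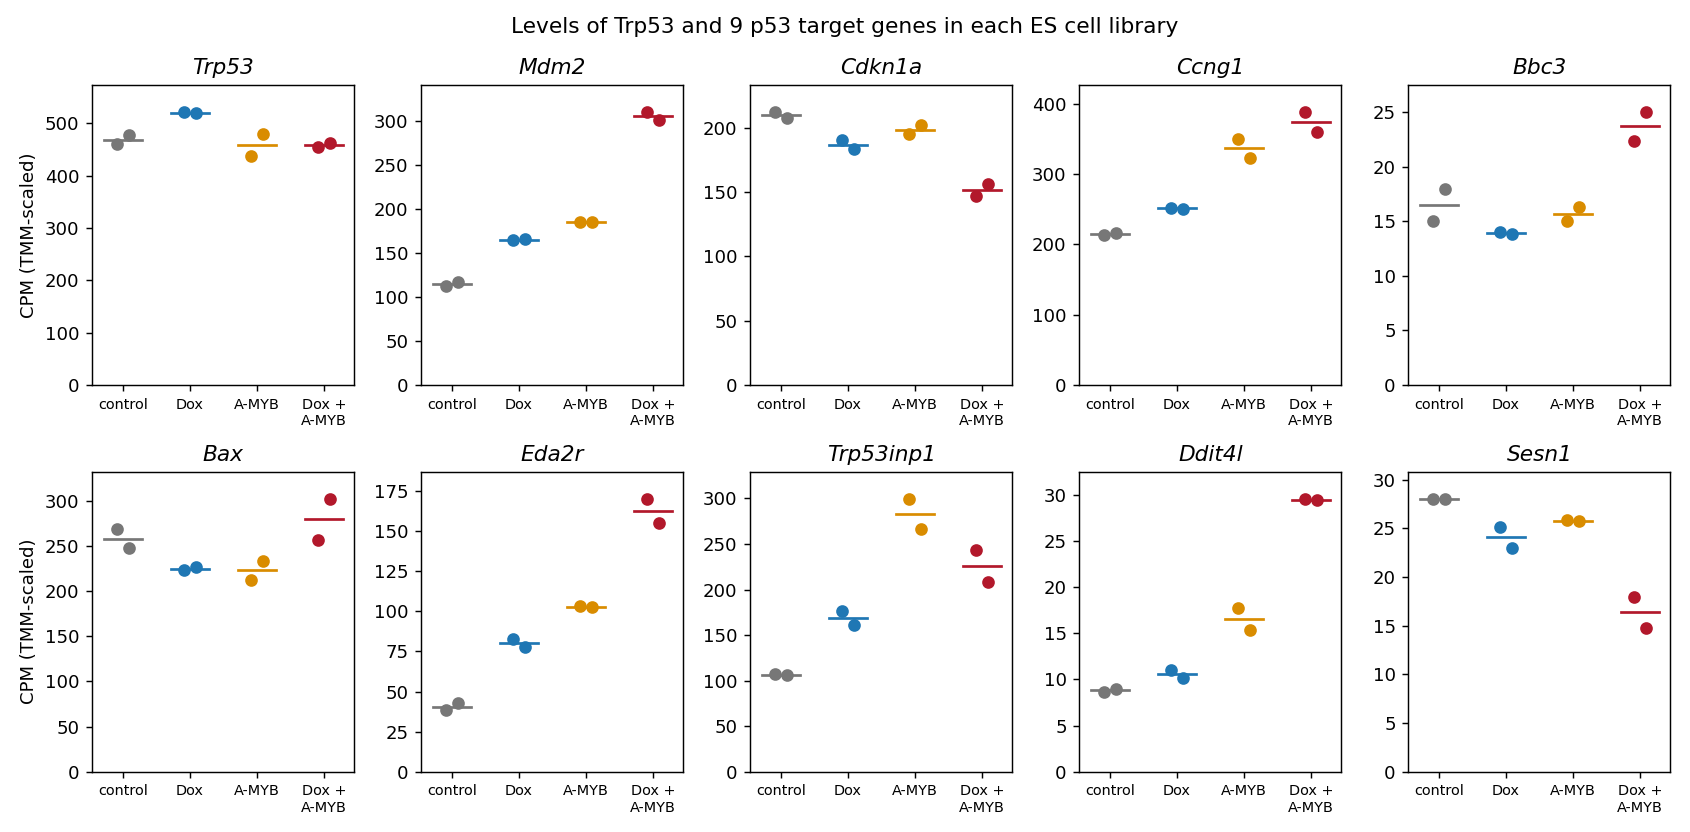
Each point is 1 library and each bar the mean of the 2 libraries of a group, in TMM-scaled CPM on a linear axis from 0, for Trp53 and 9 target genes. Mdm2, Ccng1, Eda2r and Ddit4l climb from control through Dox and A-MYB to Dox + A-MYB, Cdkn1a and Sesn1 are lowest in Dox + A-MYB, and Trp53inp1 is highest with A-MYB alone (299 and 266 CPM).

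The 2 cell-cycle genes moved in opposite directions. Cdkn1a, which encodes the cyclin-dependent kinase inhibitor p21 and is the best known arrest gene of the p53 response, was at 212 and 208 CPM in control, 190 and 183 in Dox, 195 and 202 in A-MYB and 147 and 156 in Dox + A-MYB libraries. It was highest in control and lowest in Dox + A-MYB cells, with no overlap between neighbouring groups. Dox lowered Cdkn1a by a log2 fold change of -0.39 in A-MYB cells (SE 0.06, edgeR adjusted p = 3.82e-06). Its fall with both treatments against control was -0.47 (SE 0.06, adjusted p = 1.49e-07). Over the alternatives other than leaving out a library, these 2 calls were kept but the sizes varied. The values ran from -0.41 to -0.18 for Dox in A-MYB cells and from -0.49 to -0.24 for both treatments against control. Dox without A-MYB gave -0.17 (SE 0.06, adjusted p = 0.0301), a call lost without any 1 of the 4 libraries (0.0532 to 0.145). A-MYB with Dox gave -0.30 (adjusted p = 0.000120) and, with total-count scaling, -0.11 (0.110). A-MYB without Dox gave -0.08 and did not pass the test (95% interval -0.20 to 0.04). Control was thus the highest group for Cdkn1a and the lowest for Mdm2.

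Ccng1 encodes cyclin G1, which recruits a phosphatase to Mdm2. It was at 213 and 217 CPM in control, 252 and 250 in Dox, 350 and 323 in A-MYB and 388 and 360 in Dox + A-MYB libraries, in 4 groups that did not overlap. A-MYB raised it by 0.65 on the log2 scale without Dox (SE 0.06, edgeR adjusted p = 2.41e-08) and by 0.57 with Dox (SE 0.06, adjusted p = 7.78e-09). Both together gave 1.74 times control (adjusted p = 9.79e-12). The Dox differences were smaller, 0.22 without A-MYB (adjusted p = 0.00473) and 0.15 with it (adjusted p = 0.0269). The first lost its call without any 1 of the 4 libraries (0.0519 to 0.0935), and the second without A-MYB replicate 2 (0.296) or Dox + A-MYB replicate 1 (0.218).

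Of the genes of the mitochondrial death pathway, Bbc3 and Bax rose with each treatment in the presence of the other, and neither rose with 1 treatment alone. Bbc3 encodes Puma, a BH3-only protein that neutralises the survival members of the BCL2 family. It was at 15.1 and 18.0 CPM in control, 14.0 and 13.9 in Dox, 15.0 and 16.4 in A-MYB and 22.4 and 25.0 in Dox + A-MYB libraries, and the last 2 libraries were above all others. Its log2 fold change was 0.59 for Dox with A-MYB (SE 0.11, edgeR adjusted p = 8.46e-05), 0.77 for A-MYB with Dox (SE 0.11, adjusted p = 3.39e-06) and 0.52 for both against control (SE 0.11, adjusted p = 0.000289). Dox without A-MYB (-0.25, 95% interval -0.49 to -0.00, adjusted p = 0.117) and A-MYB without Dox (-0.07, -0.31 to 0.17) did not pass the test.

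Bax encodes the pore-forming effector of that pathway. It was at 269 and 248 CPM in control, 224 and 226 in Dox, 213 and 234 in A-MYB and 257 and 302 in Dox + A-MYB libraries. The control and Dox + A-MYB libraries overlapped, as did the Dox and A-MYB libraries below them. Bax fell with Dox without A-MYB (log2 fold change -0.20, SE 0.07, edgeR adjusted p = 0.0336) and with A-MYB without Dox (-0.21, SE 0.07, adjusted p = 0.0234), 2 comparisons that share the control libraries. With total-count scaling the first was -0.15 and was not called (0.0852). Leaving out control replicate 1 (0.218), Dox replicate 1 (0.156) or Dox replicate 2 (0.0671) ended the first call. Leaving out control replicate 1 (0.158) or A-MYB replicate 1 (0.147) ended the second. Bax rose with Dox in A-MYB cells (0.32, SE 0.07, adjusted p = 0.000407) and with A-MYB in Dox cells (0.31, SE 0.07, adjusted p = 0.000642). Against control, both treatments together gave 0.11 (95% interval -0.03 to 0.26, adjusted p = 0.160), and 0.35 with total-count scaling (9.41e-05).

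Eda2r, an X-linked gene for a TNF-family receptor that binds ectodysplasin A2, had the largest rise of the 10 genes with both treatments together. It was at 38.5 and 42.7 CPM in control, 82.9 and 77.5 in Dox, 103 and 102 in A-MYB and 170 and 155 in Dox + A-MYB libraries. The groups were ordered as for Mdm2 and did not overlap. Dox raised it by 0.99 on the log2 scale without A-MYB (SE 0.07, edgeR adjusted p = 3.84e-10) and by 0.66 with A-MYB (SE 0.07, adjusted p = 1.38e-08). A-MYB raised it by 1.34 without Dox (SE 0.07, adjusted p = 4.90e-12) and by 1.02 with Dox (SE 0.07, adjusted p = 8.41e-12). Both together gave 4.01 times control (adjusted p = 9.50e-18). The pseudogene Gm18111, annotated within Eda2r, is not among the counted genes.

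Of the stress-response targets, Trp53inp1 and Ddit4l rose and Sesn1 fell. Trp53inp1 encodes a p53-induced nuclear protein of stress and autophagy. It was at 107 and 106 CPM in control, 177 and 161 in Dox, 299 and 266 in A-MYB and 243 and 208 in Dox + A-MYB libraries, so that the highest group was A-MYB alone. Dox raised it in cells without A-MYB (log2 fold change 0.67, SE 0.07, edgeR adjusted p = 6.27e-07) and lowered it in cells with A-MYB (-0.33, SE 0.07, adjusted p = 0.000553). With total-count scaling the second value was -0.12 (0.186). A-MYB raised it by 1.41 without Dox (SE 0.08, adjusted p = 2.10e-11) and by 0.42 with Dox (SE 0.07, adjusted p = 4.95e-05).

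Ddit4l is a relative of Ddit4 (Redd1) that acts on mTORC1 signalling. It was at 8.66 and 9.01 CPM in control, 10.96 and 10.1 in Dox, 17.8 and 15.4 in A-MYB and 29.5 and 29.4 in Dox + A-MYB libraries. The 4 groups did not overlap. Its rise was 1.87-fold with A-MYB without Dox (edgeR adjusted p = 3.63e-06), 1.78-fold with Dox in A-MYB cells (5.23e-07) and 3.33-fold with both (1.95e-12). Dox without A-MYB gave a log2 fold change of 0.26, which did not pass the test (95% interval -0.00 to 0.51, adjusted p = 0.122).

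Sesn1 encodes sestrin 1, a stress-induced protein that restrains mTORC1 signalling. It was at 28.02 and 27.97 CPM in control, 25.2 and 23.0 in Dox, 25.8 and 25.8 in A-MYB and 18.0 and 14.7 in Dox + A-MYB libraries. The Dox + A-MYB libraries were below all others. Sesn1 fell by a log2 fold change of -0.66 with Dox in A-MYB cells (SE 0.11, edgeR adjusted p = 8.67e-06), -0.56 with A-MYB in Dox cells (SE 0.11, adjusted p = 7.75e-05) and -0.77 with both against control (SE 0.11, adjusted p = 5.36e-07). Neither treatment alone passed the test (Dox -0.22, adjusted p = 0.115; A-MYB -0.12, 0.410). Sesn1 lies 27 bases from the next annotated gene, Armc2, and whether reads were counted by strand is not stated in the labels.

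The first comparison asks what Dox changed in these activator-carrying cells without A-MYB. Mdm2, Ccng1, Eda2r, Trp53inp1 and Trp53 rose, and Cdkn1a and Bax fell. These 7 of 10 called genes stood against 32.2% of all 14664 genes called at an adjusted p under 0.05 (17.9% higher, 14.3% lower). The median log2 fold change of the 10 genes was 0.19, against 0.03 over all genes tested. Only Mdm2, Eda2r and Trp53inp1 kept their call without each of the 4 libraries in turn, and the count of called genes was then 3 or 4.

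With A-MYB present, Dox raised Mdm2, Ccng1, Bbc3, Bax, Eda2r and Ddit4l and lowered Cdkn1a, Trp53inp1 and Sesn1. The 9 of 10 called genes stood against 58.9% of all genes (28.5% higher, 30.4% lower), and the median was 0.24 against 0.01. Mdm2 and Eda2r rose in both Dox comparisons under every alternative run. Ccng1 rose and Cdkn1a fell in both in the main fit. Without A-MYB, these 2 lost their calls when any 1 library compared was left out, and Cdkn1a with total-count scaling (edgeR adjusted p = 0.106). With A-MYB, Ccng1 was not called without a filter (0.0559) or in a fit of only the 2 groups compared (0.0835). Bax and Trp53inp1 were called in opposite directions in the 2 Dox comparisons, with the exceptions given above.

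A-MYB without Dox raised Trp53inp1, Eda2r, Ddit4l, Mdm2 and Ccng1, by 1.56-fold (Ccng1) to 2.66-fold (Trp53inp1), and lowered Bax. The 6 called genes stood against 34.7% of all genes (19.5% higher, 15.2% lower), and the median was 0.31 against -0.00. With Dox present, A-MYB raised 7 genes, from 1.24-fold (Bax) to 2.79-fold (Ddit4l), and lowered Trp53, Cdkn1a and Sesn1. Here all 10 were called, Trp53 with the exceptions given above, against 55.2% of all genes (26.8% higher, 28.4% lower), with a median of 0.49 against 0.01. The 2 A-MYB comparisons had Mdm2, Ccng1, Eda2r, Trp53inp1 and Ddit4l higher in common.

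Against control, the Dox + A-MYB cells had 6 genes higher, from 1.44-fold (Bbc3) to 4.01-fold (Eda2r), and Cdkn1a and Sesn1 lower. These 8 of 10 stood against 63.9% of all genes (33.5% higher, 30.4% lower), and the median was 0.66 against 0.05. Since the comparisons share libraries, their counts are not independent of each other. Scaling by total counts moved the median log2 fold change of all genes to 0.22 for Dox with A-MYB, 0.20 for A-MYB with Dox and 0.28 for both against control. The numbers of genes higher and lower then went from 4174 and 4463 to 6204 and 2606, from 3935 and 4161 to 5804 and 2367, and from 4906 and 4462 to 6946 and 2796. With upper-quartile scaling, Dox with A-MYB gave 5063 and 3533. Directions of the called members were unchanged by scaling except that of Trp53 for A-MYB with Dox, given above.

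**Figure D2:**
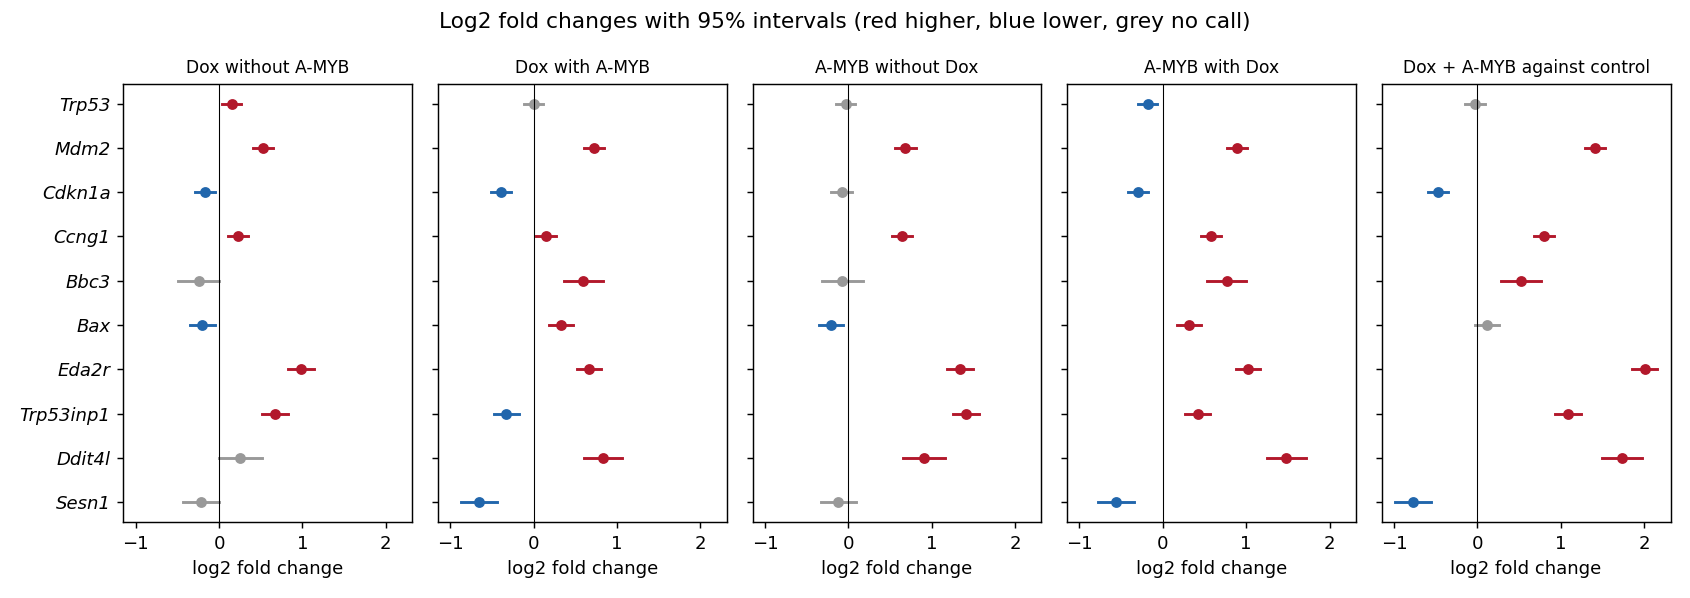
Points are log2 fold changes of the 10 genes in 5 comparisons and lines their 95% intervals from the edgeR fit (red higher, blue lower, grey not called at an adjusted p under 0.05). Mdm2, Ccng1 and Eda2r lie to the right of 0 in every panel, Bax and Trp53inp1 change side between panels, and Eda2r reaches 2.00 with both treatments.

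The design also asks whether the 2 treatments added up. For Bbc3, both together gave 0.52 on the log2 scale where the sum of the separate values was -0.32, a difference of 0.84 (SE 0.16, edgeR adjusted p = 0.000229). For Bax the values were 0.11 and -0.41, a difference of 0.52 (SE 0.10, adjusted p = 0.000217). Ddit4l also lay above its sum (1.74 against 1.16, adjusted p = 0.00749). Trp53inp1 lay below it, at 1.08 against 2.08, which is a difference of -0.995 (SE 0.10, adjusted p = 1.94e-07) or 0.502 times the level that adding would give. These 4 calls held in all alternatives run. Eda2r (2.00 against 2.33, adjusted p = 0.0132), Sesn1 (-0.77 against -0.33, 0.0189) and Cdkn1a (-0.47 against -0.25, 0.0361) lay below their sums, but each call was lost when some single libraries were left out and with total-count or upper-quartile scaling. Of the single libraries, Eda2r lost it without control replicate 1 (0.136), Dox replicate 1 (0.0738) or Dox + A-MYB replicate 2 (0.0608), Sesn1 without 6 of the 8 (up to 0.135), and Cdkn1a without 7 of the 8 (up to 0.149). Mdm2 (1.41 against 1.21, adjusted p = 0.0512), Ccng1 (0.80 against 0.87, 0.517) and Trp53 (-0.03 against 0.12, 0.136) did not pass the test, but Mdm2 passed it with total-count scaling (0.37, adjusted p = 0.000962), upper-quartile scaling (0.33, 0.00226), DESeq2 size factors (0.23, 0.0236), DESeq2 (0.23, 0.0179) and at least 10 counts in each library (0.28, 0.00667). Mdm2 also passed without control replicate 1 (0.0432) or Dox + A-MYB replicate 2 (0.0286), and not without a filter (0.117) or without any other library. The 7 of 10 called genes stood against 40.9% of all genes (16.4% higher, 24.5% lower), a split of 2410 and 3586 that became 3746 and 2291 with total-count scaling and 3398 and 2588 with upper-quartile scaling.

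**Figure D3:**
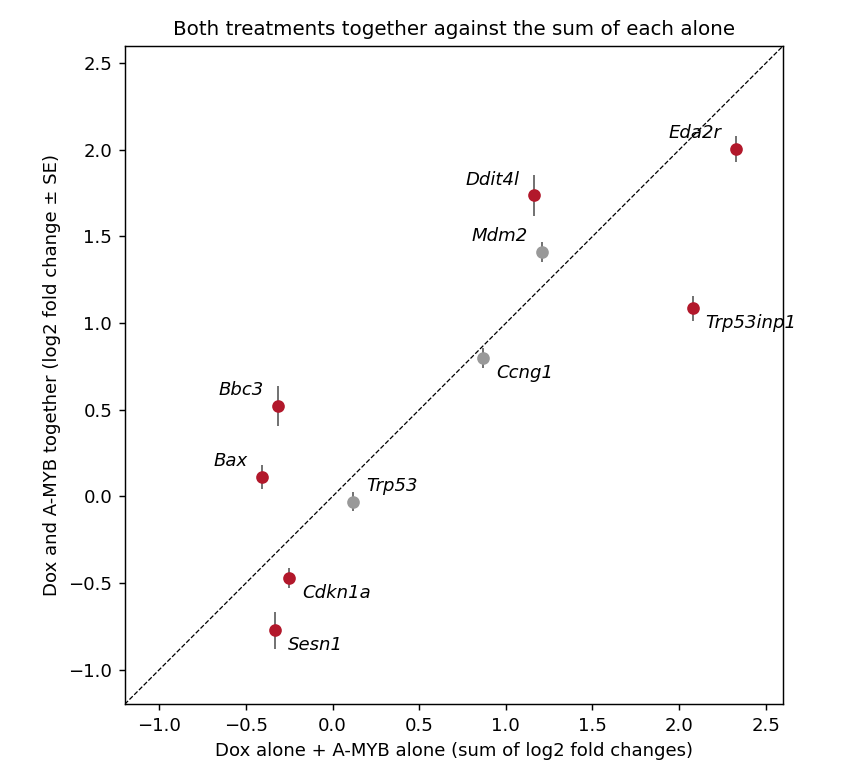
For each gene, the log2 fold change of Dox + A-MYB against control (y axis, bars ± SE) is plotted against the sum of the log2 fold changes of Dox alone and A-MYB alone (x axis). The dashed line marks equal values, and red points are the 7 genes whose difference from it was called. Bbc3, Bax and Ddit4l lie above the line, and Trp53inp1 lies farthest below it.

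Among 40 other p53 targets, of which 39 were tested (Dram1 was not), more genes rose than fell in each comparison. Dox without A-MYB gave 12 higher and 7 lower (30.8 and 17.9% of the list, against 17.9 and 14.3% of all genes tested), and Dox with A-MYB 16 and 7 (41.0 and 17.9%, against 28.5 and 30.4%). A-MYB without Dox gave 14 and 2 (35.9 and 5.13%, against 19.5 and 15.2%), and A-MYB with Dox 20 and 8 (51.3 and 20.5%, against 26.8 and 28.4%). Both against control gave 22 and 10 (56.4 and 25.6%, against 33.5 and 30.4%). Fas (1 and 1 counts in control, 32 and 21 in Dox + A-MYB libraries) passed the filter only through the Dox + A-MYB libraries. Thbs1 (6 and 8 counts in control, 53 and 47 in Dox + A-MYB libraries) did the same. Such genes are tested only if high there, so their rises in those libraries are no support for a rise of the list. The list medians were 0.06, 0.15, 0.11, 0.21 and 0.28, against 0.03, 0.01, -0.00, 0.01 and 0.05 over all genes tested. Plk2, a polo-like kinase, was at 33.5 and 38.0 CPM in control, 54.4 and 54.2 in Dox, 67.9 and 74.3 in A-MYB and 141 and 142 in Dox + A-MYB libraries. Its groups were ordered as those of Mdm2 and did not overlap (both against control 1.98, SE 0.08, edgeR adjusted p = 3.06e-17). Gadd45a, a growth arrest and DNA damage gene, was at 4.26 and 3.77 CPM in control and rose to 7.63 and 7.29 with Dox, 7.41 and 6.45 with A-MYB and 14.2 and 13.2 with both (1.77, SE 0.16, adjusted p = 4.48e-10). Polk, a translesion DNA polymerase, rose with Dox (0.63, adjusted p = 0.000118) and with A-MYB (0.60, adjusted p = 0.000186).

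Ddb2 and Lrdd were highest in the Dox + A-MYB libraries. Ddb2, a damage sensor of nucleotide excision repair, was at 11.4 and 9.83 CPM in control, 12.1 and 12.3 in Dox, 12.1 and 11.2 in A-MYB and 27.9 and 27 in Dox + A-MYB libraries (Dox with A-MYB 1.24, SE 0.11, edgeR adjusted p = 1.36e-09). Lrdd (Pidd1), which nucleates a caspase-activating complex, had 33.6 to 41.7 CPM in the other 6 libraries and 80.1 and 78.0 in these (Dox with A-MYB 1.02, SE 0.08, adjusted p = 1.05e-10). The death receptor gene Fas had 2 counts over both control libraries and 53 over both Dox + A-MYB libraries, a ratio of 21.3 with a 95% exact counting interval of 5.61 to 180; it lies outside the rule for named genes and was chosen after its values were seen. Pmaip1, which encodes the BH3-only protein Noxa, had another pattern and rose with Dox without A-MYB from 26.3 and 28.9 to 45.2 and 39.6 CPM (0.62, SE 0.09, adjusted p = 1.46e-05).

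Of the targets that fell, Ccng2, an atypical cyclin that is also a FOXO target, was at 29.4 and 29.0 CPM in control, 19.5 and 15.0 in Dox, 26.9 and 24.3 in A-MYB and 8.996 and 6.38 in Dox + A-MYB libraries. Pcna, the replication clamp, went from 380 and 378 CPM in control to 237 and 235 with both treatments (-0.68, SE 0.05, edgeR adjusted p = 4.61e-11). Gdf15, a secreted stress cytokine, fell with Dox without A-MYB (-0.80, adjusted p = 0.00499; 0.0784 without Dox replicate 1), as did Ephx1, an epoxide hydrolase (-0.52, adjusted p = 0.000648). The mitochondrial reductase gene Fdxr (-0.55, adjusted p = 0.00118) and Dcxr (-0.50, adjusted p = 0.00602; 0.0905 without control replicate 1 and 0.0617 without A-MYB replicate 1) were the targets that fell with A-MYB without Dox.

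**Figure D4:**
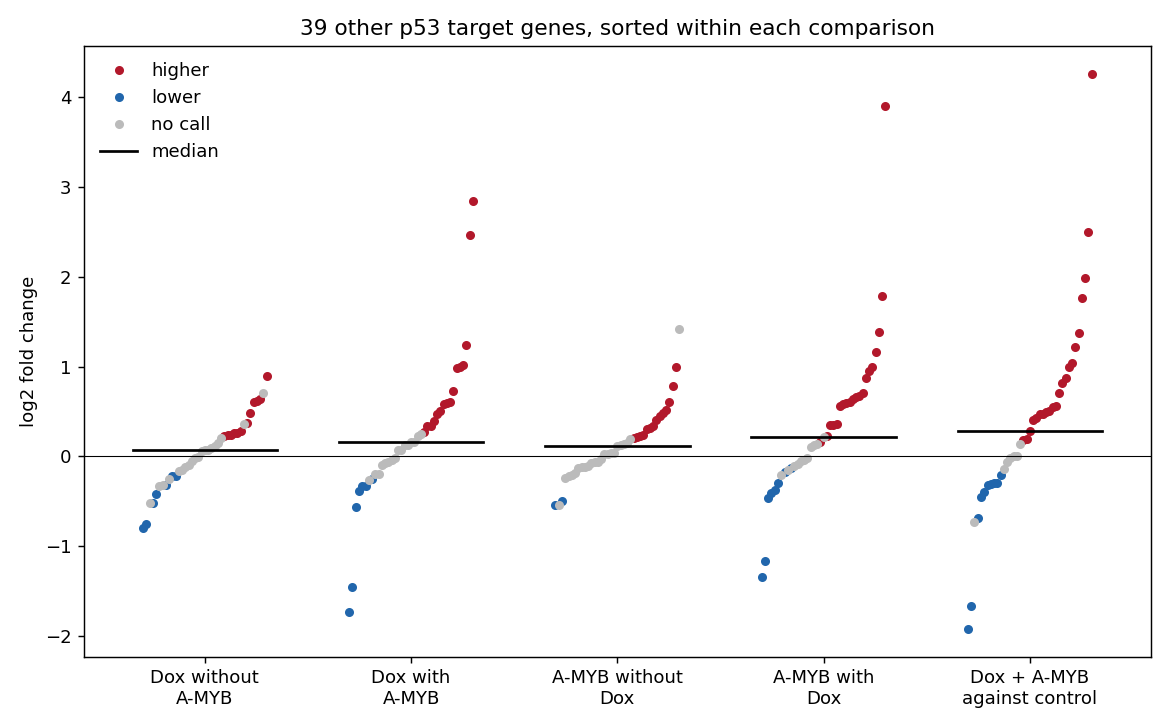
Each point is the log2 fold change of 1 of 39 other p53 target genes, sorted within each of 5 comparisons and coloured by call (red higher, blue lower, grey no call); black lines are the list medians. The medians run from 0.06 to 0.28, and the topmost point with both treatments is Fas, which had 2 counts in control.

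Of 21 regulators and relatives of p53, 8 rose and 3 fell with Dox without A-MYB (38.1 and 14.3% of the list, against 17.9 and 14.3% of all genes tested), and 8 rose and 2 fell with A-MYB without Dox (38.1 and 9.52%, against 19.5 and 15.2%). With the other treatment present, 6 were higher and 9 lower for Dox (28.6 and 42.9%, against 28.5 and 30.4%), and 6 and 8 for A-MYB (28.6 and 38.1%, against 26.8 and 28.4%). Both against control gave 9 and 5 (42.9 and 23.8%, against 33.5 and 30.4%). Trp63 (2 and 0 counts in control, 50 and 31 in Dox + A-MYB libraries) also passed the filter only through the Dox + A-MYB libraries. The damage-sensing kinase gene Prkdc was at 31.1 and 31.1 CPM in control, 50.7 and 51.3 in Dox, 57.8 and 46.1 in A-MYB and 84.3 and 72.2 in Dox + A-MYB libraries (both against control 1.33, SE 0.10, edgeR adjusted p = 3.80e-11). Mdm4, the partner of Mdm2 that masks the p53 activation domain, went from 96.9 and 104 CPM in control to 230 and 187 with both (1.05, SE 0.12, adjusted p = 4.07e-05). Atm, the kinase of double-strand breaks, rose with Dox alone (0.61, adjusted p = 1.66e-05) and with A-MYB alone (0.65, adjusted p = 8.14e-06), and so did the deacetylase gene Sirt1 (0.67, adjusted p = 0.000540, and 0.93, 4.14e-05). In A-MYB cells Sirt1 fell with Dox (a log2 fold change of -0.38, adjusted p = 0.00900), a call lost with total-count scaling (0.236) and without A-MYB replicate 1 (0.0648). The interaction was -0.86 for Atm (adjusted p = 9.70e-06) and -1.05 for Sirt1 (adjusted p = 0.000153).

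The p53 relative Trp73 rose in the Dox + A-MYB libraries to 14.2 and 13.6 CPM, from 4.71 and 5.48 in control (1.45, SE 0.16, edgeR adjusted p = 9.63e-09). Hipk2, a kinase that phosphorylates p53, fell to 8.47 and 8.28 CPM from 12.99 and 14.9 in control (-0.73, SE 0.13, adjusted p = 2.54e-05). The ribosomal protein genes Rpl5 and Rpl11, whose products bind Mdm2, were lower with Dox alone (-0.21 and -0.24) and A-MYB alone (-0.15 and -0.30), calls that were lost when some single libraries were left out, among them control replicate 1 in all 4 cases (0.105, 0.189, 0.283 and 0.0697). Rpl5 fell by -0.47 with both (adjusted p = 1.53e-07). Wrap53, whose annotated span lies 98 bases from that of Trp53 without overlapping it, was at 48.6 and 45.3 CPM in control, 59.9 and 56.6 in Dox, 45.6 and 49.2 in A-MYB and 85.8 and 88.0 in Dox + A-MYB libraries. Its rise with Dox in A-MYB cells (0.87, SE 0.08, adjusted p = 4.57e-10) stood beside a Trp53 difference of 0.00 (0.21 with total-count scaling).

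In the BCL2 family, to which Bax and Bbc3 belong, 13 other members were listed and 11 tested (Bcl2 and Bcl2a1a were not). With both treatments against control 2 rose and 6 fell (18.2 and 54.5% of those tested, against 33.5 and 30.4% of all genes), with a median of -0.27 against 0.05 over all genes. The BH3-only gene Bcl2l11 (Bim) went from 7.45 and 8.62 to 4.64 and 3.68 CPM (-0.95, SE 0.18, edgeR adjusted p = 7.05e-05). The survival gene Mcl1 went from 429 and 422 to 310 and 297 CPM (-0.49, SE 0.05, adjusted p = 2.39e-08), and Bok fell by -0.72 (SE 0.12, adjusted p = 1.19e-05). Bad rose by 0.36 (adjusted p = 0.0125), a call lost without control replicate 2 (0.202) or Dox + A-MYB replicate 2 (0.489). In A-MYB cells Dox raised 2 and lowered 2 (18.2 and 18.2%, against 28.5 and 30.4%). A-MYB alone raised Mcl1 and lowered Bok and Bid (9.09 and 18.2%, against 19.5 and 15.2%), and all 3 calls were lost without control replicate 1 (0.0835, 0.0823 and 0.148) and without A-MYB replicate 1 (0.153, 0.0626 and 0.159). In Dox cells A-MYB lowered 5 of the 11 and raised 0 (edgeR, with 0 raised at an unadjusted p under 0.05 and 0 with DESeq2). These are 0% higher and 45.5% lower, against 26.8 and 28.4% of all genes. Of the 5, Bcl2l2 (-0.40) was -0.21 and not called with total-count scaling (edgeR adjusted p = 0.163). Dox alone lowered 1 and raised 0 (edgeR, with 0 raised at an unadjusted p under 0.05 and 0 with DESeq2). These are 0% higher and 9.09% lower, against 17.9 and 14.3% of all genes. The 1 gene was Bid (-0.20), which was -0.16 and not called with total-count scaling (edgeR adjusted p = 0.0829).

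The tested genes whose centred log2 CPM lay nearest to each of 3 members over the 8 libraries were found among 10499 genes whose mean log2 CPM reached 2. They were Klf10, Txnip and Gpcpd1 for Mdm2, at a root-mean-square distance of 0.045, 0.063 and 0.078, where Mdm2 itself varied by 0.505 around its mean. For Cdkn1a they were Uqcrfs1, Uba2 and Paics (0.027 to 0.028, against its own 0.181). For Trp53 they were Dhx37, Map1s and Trp53bp2 (0.024 to 0.032, against its own 0.084). These distances describe 8 libraries that share 4 groups.

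The series also has H3K27ac peak lists, a mark of active promoters and enhancers, from pachytene spermatocytes of C57BL/6J males aged 8 to 12 weeks, with 2 wild-type and 2 A-myb repro9/repro9 libraries, each from 1 mouse. None of the 9 member genes with an annotated start had a peak within 1 kb of it in any of the 4 lists. Of 27025 genes, 2.7 and 1.5% had one in the wild-type lists and 1.0 and 1.0% in the mutant lists, so a count of 0 of 9 does not set these genes apart. These shares are low for a mark of active promoters, so the lists do not show whether the mark was absent at these starts.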

How the data were processed

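RNA was measured in 8 ES cell libraries made with a stranded mRNA kit, per the labels' protocols. The deposited values are whole-number read counts per gene; per the submitters' processing notes the tools were HISAT2 2.1.0, Bowtie2 2.3.3.1, HTSeq, MACS 1.4.2 and bcl2fastq 2.20.0 on build mm10, with no role given for each. Whether HTSeq counted by strand is not stated there. Lines that name no gene, 17.2 to 19.5% of the reads in the files, were left out. Of the 4 H3K27ac peak lists, deposited 1 per library, only positions were used for the main result; the fold enrichment of each peak is the authors' value, used in 1 alternative, and the deposited peak score was not used. The 4 input libraries were not analysed here.

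Counts were fitted with edgeR 4.0.16 in R 4.3.3 (TMM scaling, filterByExpr on the 4 groups, glmQLFit with robust estimation, glmQLFTest, two-sided), with 1 coefficient per group over all 8 libraries and 4 residual degrees of freedom. P-values were adjusted by the Benjamini-Hochberg method over the 14664 genes tested, and a gene was called at an adjusted p under 0.05. Standard errors of log2 fold changes were taken from the F statistic (the size of the change over the root of F). CPM values use the TMM-scaled library size. Replicate libraries differed by more than sampling noise (chi-square per degree of freedom 5.41 to 13.7). All 8 were counted separately, although this spread does not show that the wells were separate cultures. The fit was tested on simulated data in which few genes changed, and only for Dox without A-MYB. That setting does not test the scaling where many genes change. Alternatives were DESeq2 1.42.0, other scalings and filters, a replicate block, fits of only the 2 groups compared, and leaving out each library; a fit without the Dox + A-MYB libraries was added after seeing the data. All 137 listed genes were found in the files, 3 of them by a synonym.

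All 10 genes are named in each comparison. From each gene list, up to 3 called genes per direction and comparison with the largest change and a mean log2 CPM of at least 0 could be named; 1 gene that this rule names is not reported here, although it is counted in its list. The 10 genes and the lists were chosen with earlier results of these data known. Promoter sequences and gene positions are from RefSeq tables of GRCm38.p6. The cell culture labels put the induction of both treatments at day 1 and day 2 and do not say more on its timing.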

Additional observations from a re-analysis of the deposited data

Results flagged for a closer look

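For 7 of the 10 genes, and for 21 of the 39 other p53 targets tested (13 higher and 8 lower), of which 5 are given, the Dox log2 fold change differed between cells with and without A-MYB by the edgeR test of that difference, which called 40.9% of all genes tested (16.4% higher, 24.5% lower); values are the Dox change with A-MYB minus that without it. Among the 10 genes they were 0.84 for Bbc3, 0.57 for Ddit4l, 0.52 for Bax, -0.22 for Cdkn1a, -0.32 for Eda2r, -0.44 for Sesn1 and -0.995 for Trp53inp1. The calls of Cdkn1a, Eda2r and Sesn1 were lost with total-count scaling (edgeR adjusted p = 0.625, 0.232 and 0.144) and without some single libraries. That of Cdkn1a was also lost with DESeq2 (adjusted p = 0.0842) and with DESeq2 size factors in edgeR (0.0761). In the main fit, Dox raised Trp53inp1 and lowered Bax in cells without A-MYB, and did the reverse in cells with it. With total-count scaling the fall of Bax (edgeR adjusted p = 0.0852) and that of Trp53inp1 (0.186) were not called. The fall of Bax was also lost without some single libraries.

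Among the other targets, the repair gene Ddb2 had a difference of 1.03 (SE 0.17, edgeR adjusted p = 2.42e-05), from a level of 27.9 and 27 CPM in the Dox + A-MYB libraries and 9.83 to 12.3 CPM in the other 6. The cytokine gene Gdf15 (0.87, SE 0.29, adjusted p = 0.0192) was lowest in the Dox libraries (2.76 and 3.26 CPM); its call was lost without Dox replicate 1 (0.0971), A-MYB replicate 2 (0.0561) or Dox + A-MYB replicate 1 (0.0602). Dcxr, a sugar reductase gene, had a difference of 0.84 (SE 0.19, adjusted p = 0.000956). Ccng2 (-0.98, SE 0.20, adjusted p = 0.000413) was lowest in the Dox + A-MYB libraries. Pmaip1 had -0.67 (SE 0.13, adjusted p = 0.000211), with 26.3 and 28.9 CPM in control and 37.4 to 45.2 CPM in the other 6 libraries.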

How the results depend on the processing

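The differences in Mdm2 and Eda2r, and every call for Ddit4l and Bbc3, kept direction and call in all 5 comparisons between groups under every alternative run; the weaker calls, above all those of Dox without A-MYB, did not. Leaving out 1 library, which assumes that the lone library of its group varies like the others, left 3 to 4 of its 7 called genes, and 4 to 6 of the 7 that departed from additivity. Over all genes, Dox without A-MYB then gave as few as 1253 higher and 1416 lower (2626 and 2091 with all libraries), and A-MYB without Dox as few as 1718 and 1482 (2856 and 2230). Of the values that changed sign, those of Trp53 were 0.0082 (A-MYB with Dox), 0.20 (both against control, adjusted p = 0.00245) and 0.016 (departure from additivity) with total-count scaling, 0.022 with upper-quartile scaling and 0.0083 with at least 10 counts in each library (both against control), and -0.019 without a filter (Dox with A-MYB). With each library left out in turn, Trp53 ranged from -0.064 to 0.062 for Dox with A-MYB and from -0.12 to 0.0033 for A-MYB without Dox, Bbc3 from -0.22 to 0.034 for A-MYB without Dox, and Bax from -0.045 to 0.20 for both against control. The departure of Ccng1 from additivity was 0.094 with total-count scaling, 0.058 with upper-quartile scaling, 0.0091 with at least 10 counts in each library and -0.11 to 0.0077 with each library left out. The cause of these changes was not tested. Of 616 counts of listed genes under the alternatives, 77 moved by over 1.5 times, 42 of them when a library was left out. The fit without the Dox + A-MYB libraries, chosen after seeing the data, called 7 genes for Dox and 6 for A-MYB, as in the fit of all 8.

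Replicate numbers are shared between groups. Over all genes tested, the deviations of same-numbered libraries had correlations of -0.027 to 0.084. Genes with few counts weigh as much as others in these values, and whether same-numbered libraries shared a batch was not tested. With the number as a replicate block, 7, 9, 6, 10 and 8 genes were called in the 5 comparisons and 8 departed from additivity, Mdm2 being added (adjusted p = 0.0428). The count of 0 of 9 genes with an H3K27ac peak was the same with a window of 2.5 kb, at the start base and with peaks of at least 10-fold enrichment. Depth limits the low genes of the lists: Fas had 2 counts in control.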

Other observations

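Cyclins, cyclin-dependent kinases and their inhibitors that act in G1 and S phase, the machinery on which p21 acts, were counted as a list of 18 genes, all tested. Dox without A-MYB gave 2 higher and 7 lower (11.1 and 38.9% of the list, against 17.9 and 14.3% of all genes tested), and Dox with A-MYB 4 and 9 (22.2 and 50%, against 28.5 and 30.4%). A-MYB without Dox gave 4 and 5 (22.2 and 27.8%, against 19.5 and 15.2%), A-MYB with Dox 4 and 7 (22.2 and 38.9%, against 26.8 and 28.4%), and both against control 4 and 9 (22.2 and 50%, against 33.5 and 30.4%). The list medians were -0.05, -0.32, 0.01, -0.23 and -0.26, against 0.03, 0.01, -0.00, 0.01 and 0.05 over all genes tested. Ccnd1, the D-type cyclin gene driven by growth signals, was at 153 and 147 CPM in control, 124 and 122 in Dox, 112 and 114 in A-MYB and 55.8 and 55.5 in Dox + A-MYB libraries (both against control -1.43, SE 0.06, edgeR adjusted p = 5.30e-16). Ccne1, the cyclin gene of the G1 to S transition, was at 220 and 231 CPM in control, 168 and 166 in Dox, 179 and 182 in A-MYB and 98.3 and 98.5 in Dox + A-MYB libraries (-1.197, SE 0.06, adjusted p = 3.76e-15).

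The pocket protein gene Rb1, which restrains E2F factors, went the other way, from 7.03 and 7.27 CPM in control to 12.6 and 10.96 in Dox, 18.5 and 16.5 in A-MYB and 20.9 and 18.3 in Dox + A-MYB libraries (1.46, SE 0.13, edgeR adjusted p = 4.14e-10). Its relative Rbl2 rose from 10.7 and 11.8 to 23.0 and 22.1 CPM with both treatments (1.01, SE 0.12, adjusted p = 5.70e-08). Ccnd1, Ccne1 and Cdkn1a were thus all lowest in the Dox + A-MYB libraries.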
